A study of Mus musculus and Homo sapiens with 4 samples.

Results

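The mitochondrially encoded subunits of the cytochrome complexes and of ATP synthase were examined in 4 ribosome profiling libraries. They comprise 12 transcripts, 6 human and 6 mouse, taken by Ensembl transcript identifier out of 288251 transcripts listed for both species. The human genes are MT-CO1 (ENST00000361624), MT-CO2 (ENST00000361739), MT-CO3 (ENST00000362079), MT-CYB (ENST00000361789), MT-ATP6 (ENST00000361899) and MT-ATP8 (ENST00000361851). The mouse genes are mt-Co1 (ENSMUST00000082402), mt-Co2 (ENSMUST00000082405), mt-Co3 (ENSMUST00000082409), mt-Cytb (ENSMUST00000082421), mt-Atp6 (ENSMUST00000082408) and mt-Atp8 (ENSMUST00000082407). Their names came with the list of members, since no table used here pairs transcripts with names. The rule that lists them uses no measured value, but it was written with earlier results of these data known.

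Ribosome profiling sequences footprints, the short RNA pieces that ribosomes shield from nuclease. Whether the reads of the subunit transcripts are such footprints was not tested. The human pair was made from HEK, an embryonic kidney cell line, in DMEM with 10% FBS: an input library, and a bound library of assembled ribosomes caught on streptavidin by an affinity tag on the large subunit. No elongation inhibitor is named for the HEK samples. The mouse pair was made from the E14 embryonic stem (ES) cell line, genetic background 129/Ola, kept feeder-free with LIF. These cells were exposed for 60 s to cycloheximide (100 µg/ml) or to emetine, whose dose the labels do not give. Each of the 4 groups had 1 library, so no test of a condition was possible. Intervals are exact 95% counting intervals, which take each read as a separate molecule and say nothing of variation between cultures.

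Animal mitochondrial DNA encodes a few membrane proteins of oxidative phosphorylation, the process that turns electron transfer into a proton gradient and the gradient into ATP. Their messages are translated inside the organelle by the mitochondrial ribosome, which has its own RNAs and proteins and is distinct from the ribosome of the cytosol. Cycloheximide and emetine are classical inhibitors of the cytosolic ribosome. Cytochrome b, made from MT-CYB, belongs to the bc1 complex (complex III), which passes electrons to cytochrome c. CO1, CO2 and CO3 form the core of cytochrome c oxidase (complex IV), and ATP6 and ATP8 belong to the membrane part of ATP synthase.

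The transcript counts summed to 17446956 (HEK input), 30208713 (HEK bound), 342552347 (cycloheximide) and 188700177 (emetine). Overlapping isoforms count some reads more than once, so the true depth is unknown. Each subunit was measured by its coding region, or, lacking a listed coding region, by its whole transcript. That was the case for MT-CO1, MT-CO3 and MT-CYB in human and for mt-Co3 and mt-Cytb in mouse. No leader (5′) or trailer (3′) counts are listed for any of the 12. Within each pair, log2 ratios were centred on the median coding region, taken over those with at least 100 reads summed over both libraries. All 12 subunits passed that minimum. No other transcript repeated the counts of a subunit in both libraries. Nuclear DNA holds copies of mitochondrial sequence, and how reads with several matches were treated is unknown here, so the counts of all 12 carry that uncertainty.

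In HEK cells the 6 subunits were much lower among the ribosomes caught by the tag than before capture, although MT-CO1 still had 3206 reads there. All 6 were at least 16-fold lower after capture, under every scaling, minimum and prior tried, as were 0.0189% of coding regions and 0.19% of all 48823 features compared. The reads of the 6 together were 37.2-fold lower (95% counting interval 36.2 to 38.2), and the median of the 6 log2 ratios was -5.28, where that of all 26492 coding regions was 0 by construction. At the 2-fold threshold the count was 6 of 6 subunits, beside 0.861% of coding regions, 2.58% of transcripts with no counted coding region and 1.65% of all features. The 6 whole transcripts took 0.591% of all transcript counts before capture (95% exact binomial interval 0.587 to 0.594) and 0.0182% after it (0.0177 to 0.0186).

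**Figure D1:**
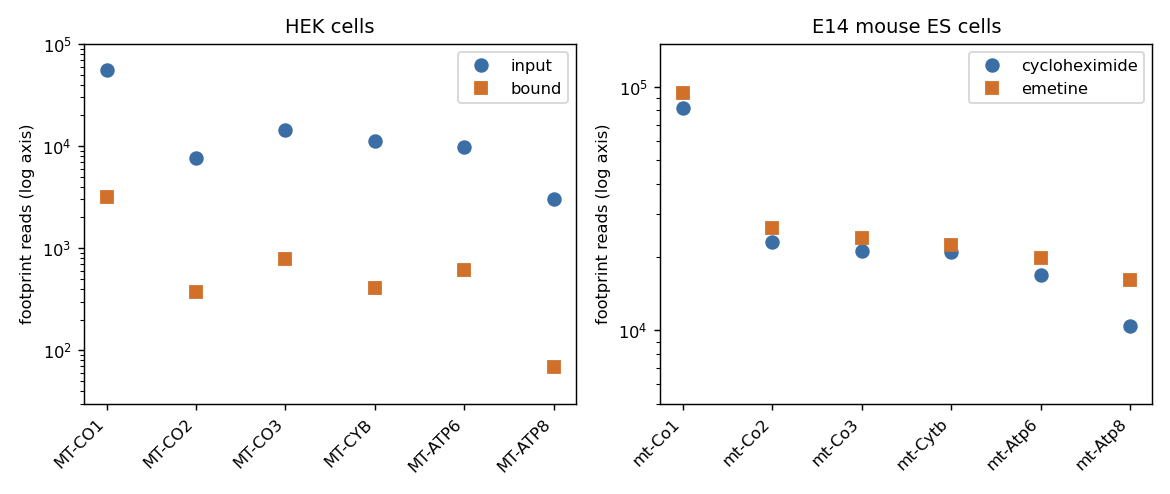
Reads of each subunit in the 2 libraries of its pair (axis: footprint reads), not scaled for depth. The vertical axes are logarithmic and show reads of the coding region, or of the entire transcript if none is listed for the coding region; 1 point is 1 library. In HEK cells (left) every bound value lies below its input value, and in ES cells (right) every emetine value lies above its cycloheximide value.

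Among the cytochrome c oxidase subunits, MT-CO1, which carries the haem-copper centre where oxygen is reduced, gave 55533 input reads against 3206 bound reads. After scaling it was 34.4-fold lower (33.2 to 35.7). By reads of the whole transcript it held place 6 of 194871 transcripts before capture and place 1358 after it. MT-CO2, the subunit that receives electrons from cytochrome c, gave 7671 input reads against 372 bound reads, 41.0-fold lower (36.9 to 45.6). MT-CO3, the remaining core subunit, gave 14538 against 787, 36.7-fold lower (34.2 to 39.5). The 3 subunits of this enzyme ranged from 34.4-fold to 41.0-fold lower, and their summed reads were 35.4-fold lower (34.4 to 36.5). The ratio of MT-CO1 was 1.19 times that of MT-CO2 (exact conditional interval 1.07 to 1.33).

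The bc1 subunit was lower still. MT-CYB gave 11260 input reads against 406 bound reads, 55.1-fold lower (49.9 to 61.0). Its interval does not overlap that of any cytochrome c oxidase subunit.

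The pair of ATP synthase subunits stood at the opposite ends of the 6. MT-ATP6, which forms part of the proton path, gave 9855 input reads against 609 bound reads, 32.2-fold lower (29.6 to 35.0). MT-ATP8, a very short membrane protein, gave 3045 against 69, 87.7-fold lower (69.1 to 113). The ratio of MT-ATP6 was 2.73 times that of MT-ATP8 (exact conditional interval 2.12 to 3.56). Their reading frames are known to overlap on a shared message, and how reads in the overlap were counted is unknown here.

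**Figure D2:**
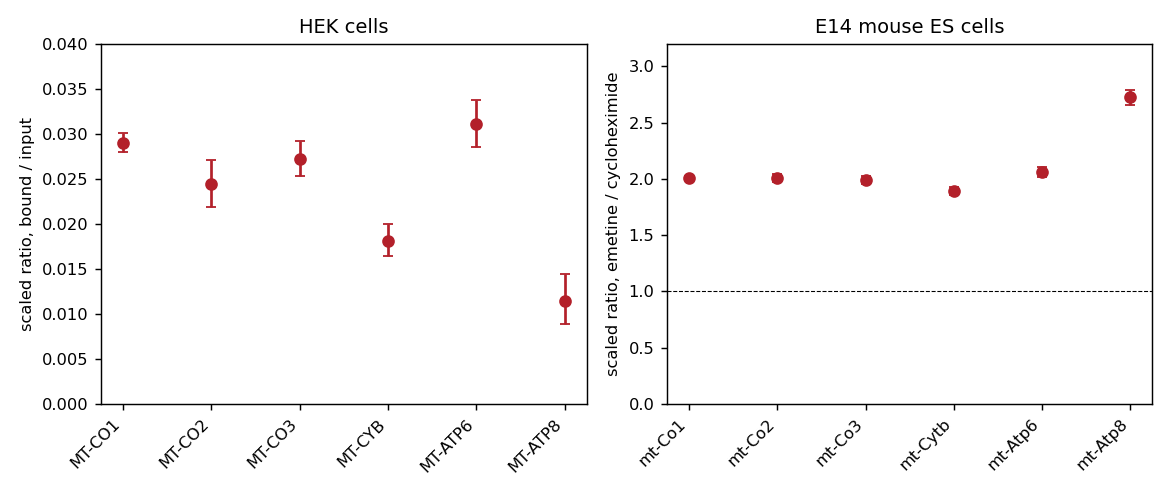
Scaled ratio of each subunit, bound over input in HEK cells (left) and emetine over cycloheximide in ES cells (right, with a dashed line at a ratio of 1). Points are 1 pair of libraries each and bars are exact 95% counting intervals. MT-CYB (0.0181) and MT-ATP8 (0.0114) lie below the other human subunits, and mt-Atp8 (2.73) lies above the other mouse subunits.

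Comparing the human subunits with each other does not depend on the scaling between libraries. In 12 of the 15 pairs of subunits the 95% interval of the ratio between them left out 1; the intervals are not adjusted for the 15 comparisons. The 3 pairs whose intervals included 1 were MT-CO1 with MT-CO3 (1.07, interval 0.984 to 1.16), MT-CO1 with MT-ATP6 (0.934, interval 0.854 to 1.02) and MT-CO2 with MT-CO3 (0.896, interval 0.787 to 1.02).

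The make-up of the 6 differed between the libraries. MT-CO1 accounted for 54.5% of their input reads (54.2 to 54.8) and 58.8% of their bound reads (57.5 to 60.2). The share of MT-CYB was 11.0% of input reads (10.9 to 11.2) and 7.45% of bound reads (6.77 to 8.18). That of MT-ATP8 was 2.99% (2.88 to 3.09) and 1.27% (0.987 to 1.60). MT-ATP6 took 9.67% (9.49 to 9.85) and 11.2% (10.3 to 12.04). The intervals overlapped for MT-CO3, at 14.3% (14.1 to 14.5) and 14.4% (13.5 to 15.4), and for MT-CO2, at 7.53% (7.37 to 7.69) and 6.83% (6.17 to 7.53).

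By raw reads the human order before capture was MT-CO1, MT-CO3, MT-CYB, MT-ATP6, MT-CO2 and MT-ATP8, with no overlap between neighbours' exact Poisson intervals. After capture MT-ATP6 (609 reads, 562 to 659) came before MT-CYB (406 reads, 368 to 448). MT-CYB and MT-CO2 (372 reads, 335 to 412) could not be ordered there by count. No table of human gene lengths was used here, so this is an order of reads and not of reads per base.

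Against other coding regions the 3 human subunits with a counted coding region stood at the far end of the distribution. The lowest 1% of the 26492 coding regions had log2 ratios under -0.94 and the highest 1% over 0.63. At least 16-fold lower after capture were 5 coding regions (0.0189%), and 3 of them were MT-CO2, MT-ATP6 and MT-ATP8. The others, singled out after their values were seen, were ENST00000361335 (2090 input against 55 bound reads, 75.5-fold lower) and ENST00000361567 (19201 against 2025, 18.8-fold lower). With transcripts that have no counted coding region included, 93 features (0.19%) were at least 16-fold lower, the 6 subunits among them. Of the 1216 other coding regions with at least 3114 summed reads, the number of MT-ATP8, the one with the ratio nearest the median of the 6 was ENST00000361567, at -4.24. The next nearest lay at -0.42. ENST00000361335, at -6.22, had too few reads for this comparison, which also left out transcripts with no counted coding region.

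**Figure D3:**
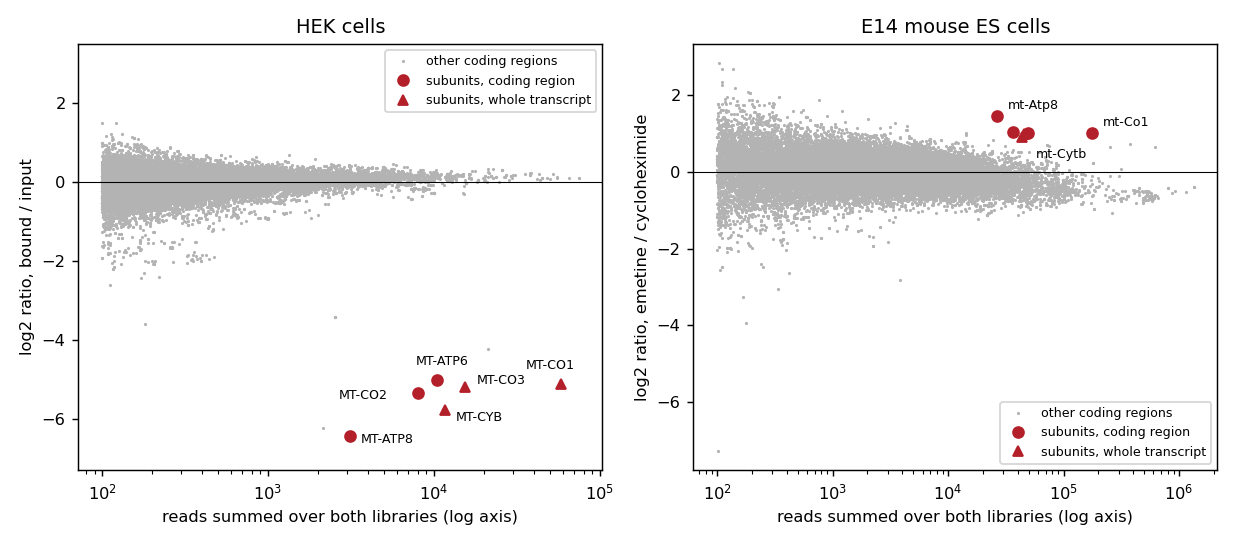
Log2 ratio against reads summed over both libraries (logarithmic horizontal axis) for coding regions with at least 100 reads (grey) and for the subunits (red; circles are coding regions, triangles whole transcripts). In HEK cells (left) the subunits lie between -6.44 and -5.01, far under the band of most other coding regions. ENST00000361335 (-6.22) and ENST00000361567 (-4.24), in grey, also lie far under it. In ES cells (right) the subunits lie between 0.92 and 1.45, at the upper edge for coding regions with as many reads.

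Reads of the human transcripts outside their coding region were also lower after capture. MT-CO2 gave 316 such input reads against 7 bound reads, 89.7-fold lower (43.1 to 225). MT-ATP6 gave 557 against 18, 61.5-fold lower (38.6 to 105), and MT-ATP8 gave 253 against 8, 62.9-fold lower (31.4 to 147). These reads were few before capture, between 3.96% of the whole transcript for MT-CO2 and 7.67% for MT-ATP8. Where the counted coding region begins and ends is unknown here.

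In ES cells the 6 subunits were higher with emetine than with cycloheximide, by close to 2-fold. The emetine library held more reads of every subunit although its depth was 1.76-fold lower by the median coding region. The median of the 6 log2 ratios was 1.01, where that of 28604 coding regions was 0 by construction. At least 2-fold higher were 4 of the 6, beside 1.46% of coding regions, 5.81% of transcripts with no counted coding region and 3.65% of all 57672 features compared. The threshold runs through the members, whose ratios ran from 1.89 to 2.73. With whole transcripts in place of coding regions, for the scaling too, 1 of the 6 was at least 2-fold higher. On the coding-region scaling the whole-transcript log2 ratios of mt-Co1, mt-Co2, mt-Atp6 and mt-Atp8 were 1.004, 1.013, 1.03 and 1.25, all past 2-fold. Those of mt-Co3 (0.994) and mt-Cytb (0.917) were not. With a scaling set of all coding regions with at least 1 read in each library, 2 were at least 2-fold higher. Scaled to coding regions with at least 10000 reads, an alternative added after seeing the data, all 6 were. The ratios are relative, so more subunit reads and fewer reads of other genes cannot be told apart.

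The mouse subunits of cytochrome c oxidase had nearly the same ratio. mt-Co1 gave 82102 reads under cycloheximide against 93938 under emetine, 2.01-fold higher after scaling (1.99 to 2.03). mt-Co2 gave 23115 against 26369, a ratio of 2.005 (1.97 to 2.04), and mt-Co3 gave 21205 against 24036, a ratio of 1.99 (1.95 to 2.03). In the 3 comparisons between them the interval included 1: mt-Co1 over mt-Co2 was 1.003 (0.983 to 1.02), mt-Co1 over mt-Co3 was 1.01 (0.989 to 1.03) and mt-Co2 over mt-Co3 was 1.01 (0.981 to 1.03).

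mt-Cytb, the bc1 subunit, had the lowest ratio of the mouse subunits, with 20953 reads under cycloheximide against 22512 under emetine, a ratio of 1.89 (1.85 to 1.92). mt-Atp6 gave 16877 against 19797, a ratio of 2.06 (2.02 to 2.10). mt-Atp8 had the highest, with 10406 against 16149 and a ratio of 2.73 (2.66 to 2.80). The ratio of mt-Atp8 was 1.32 times that of mt-Atp6 (1.28 to 1.37) and 1.36 times that of mt-Co1 (1.32 to 1.39). In the 12 remaining pairs the interval left out 1, again without adjustment for the number of pairs. Several of these differences were small, such as 1.02 for mt-Atp6 over mt-Co1 (1.002 to 1.05).

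Among the reads of the 6 mouse subunits, mt-Atp8 took 5.96% with cycloheximide (5.85 to 6.07) and 7.96% with emetine (7.85 to 8.08). mt-Cytb took 12% (11.8 to 12.1) and 11.1% (11.0 to 11.2). For mt-Co1 the shares were 47.0% (46.8 to 47.2) and 46.3% (46.1 to 46.5), and for mt-Atp6 they were 9.66% (9.53 to 9.80) and 9.76% (9.63 to 9.89). As a share of all transcript counts the 6 whole transcripts took 0.0546% with cycloheximide and 0.115% with emetine.

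Abundant mouse coding regions tended to be lower with emetine, and the subunits went the other way. The 250 coding regions with 100000 or more summed reads had a median log2 ratio of -0.52; mt-Co1, with 176040 summed reads, was at 1.01, and 249 of these regions lay below it. The 4352 coding regions from 10000 to under 100000 reads had a median of -0.18, and 4351 lay below mt-Atp8, 4350 below mt-Atp6 and 4349 below mt-Co2. Measured against that bin, mt-Co3 had 4348 regions below it and mt-Cytb 4347. Of the 4602 coding regions with at least 10000 reads, 5 (0.109%) were at least 2-fold higher with emetine. These were mt-Co1, mt-Co2, mt-Atp6, mt-Atp8 and ENSMUST00000082392, which gave 6732 against 7670 reads and a ratio of 2.002 and was singled out after its value was seen. Of 1616 other coding regions with at least 26555 summed reads, the number of mt-Atp8, the nearest to the median of the 6 was ENSMUST00000176551 at 0.71, and the next nearest lay at 0.69. ENSMUST00000082392, at 1.001, had too few reads for this comparison.

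Gene positions were available for mouse, from RefSeq on GRCm38.p6, the assembly that mm10 names; coordinates are 1-based on the mitochondrial chromosome MT. mt-Co1 spans 5328 to 6872 and mt-Co2 spans 7013 to 7696. After the lysine tRNA gene come mt-Atp8 (7766 to 7969), mt-Atp6 (7927 to 8607) and mt-Co3 (8607 to 9390) without a gap. mt-Cytb lies apart at 14145 to 15288, between the glutamate and threonine tRNA genes. mt-Atp8 and mt-Atp6 share 43 bases, which is 21.1% of the 204 bases of mt-Atp8, and mt-Atp6 and mt-Co3 share 1 base.

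Divided by gene length, the mouse subunits differed in read density within each library. Reads were those of the coding region, or of the whole transcript for mt-Co3 and mt-Cytb. The length was that of the whole gene, since the extent of the counted coding region is unknown here. With cycloheximide 45.4% of the reads of the mt-Atp8 transcript lay outside that region, so its density and place are uncertain. With cycloheximide mt-Co1 had 53.1 coding reads per base (exact Poisson interval 52.8 to 53.5) and mt-Atp8 had 51.0 (50.03 to 52.0). They were followed by mt-Co2 at 33.8 (33.4 to 34.2), mt-Co3 at 27.0 (26.7 to 27.4), mt-Atp6 at 24.8 (24.4 to 25.2) and mt-Cytb at 18.3 (18.1 to 18.6). No neighbours in this order had overlapping intervals, and the same held with emetine. There mt-Atp8 came first at 79.2 (78.0 to 80.4), before mt-Co1 at 60.8 (60.4 to 61.2). The order then went on with mt-Co2 at 38.6 (38.1 to 39.0), mt-Co3 at 30.7 (30.3 to 31.0), mt-Atp6 at 29.1 (28.7 to 29.5) and mt-Cytb at 19.7 (19.4 to 19.9). These densities are not scaled between libraries, so they order the genes within a library only.

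The 3 cytochrome c oxidase genes were not covered at equal density. mt-Co1 had 1.57 times the density of mt-Co2 with cycloheximide and 1.58 times with emetine, and 1.97 and 1.98 times that of mt-Co3. It had 2.90 and 3.09 times the density of mt-Cytb. The order of mt-Co1, mt-Co2, mt-Co3 and mt-Cytb among themselves was the same in both libraries, by coding regions where listed and by whole transcripts. For mt-Co3 and mt-Cytb, with no listed coding region, both orders use the same whole-transcript reads. The places of the ATP synthase genes depended on the region counted. By whole transcripts mt-Atp8 came first in both libraries, at 93.3 reads per base with cycloheximide and 126 with emetine. mt-Atp6 then stood at 27.6 against 27.0 for mt-Co3 with cycloheximide, where the intervals overlap, and at 32.1 against 30.7 with emetine. Summed over their joint 842 bases, mt-Atp6 and mt-Atp8 had 32.4 coding reads per base with cycloheximide and 42.7 with emetine. How reads in the bases they share were counted is unknown here, so these sums may count some reads for both genes.

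**Figure D4:**
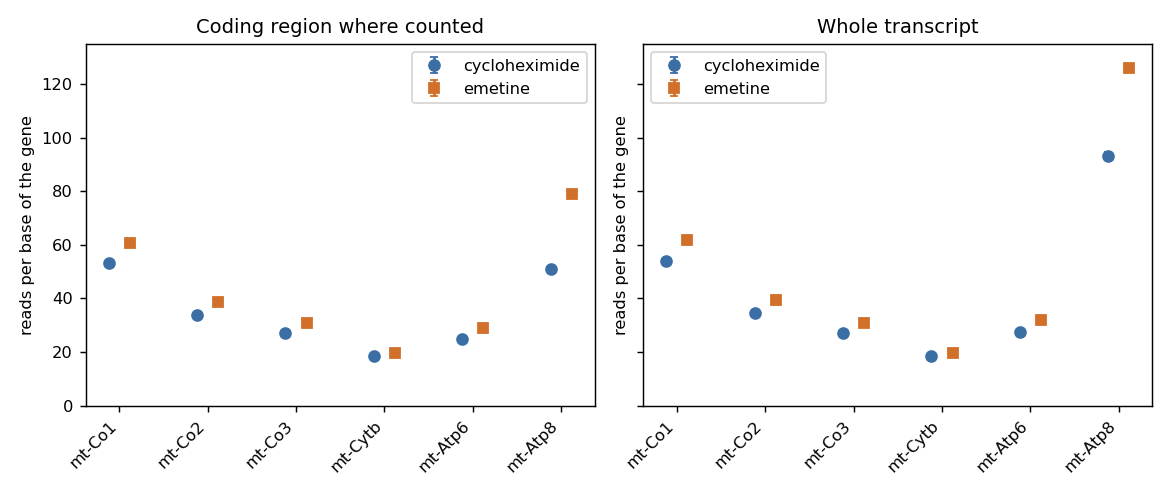
Reads per base of gene length for the 6 mouse subunits in the cycloheximide and emetine libraries, from coding-region counts where listed (left) and from whole transcripts (right). Bars are exact 95% Poisson intervals and are mostly hidden by the points. mt-Cytb is lowest in both panels, and mt-Atp8 moves from 51.0 to 93.3 reads per base with cycloheximide when the whole transcript is used.

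mt-Atp8 also had the most reads outside its counted coding region. They made up 45.4% of its transcript's reads with cycloheximide (44.6 to 46.1) and 37.2% with emetine (36.6 to 37.8). For mt-Atp6 the values were 10.3% and 9.36%, for mt-Co1 1.69% and 1.44%, and for mt-Co2 1.8% and 2.45%. In human MT-ATP8 the share was 7.67% before capture (6.79 to 8.63). The outside reads of mt-Atp8 numbered 8637 and 9583, a scaled ratio of 1.95 (1.89 to 2.01), below the 2.73 of its coding reads. Over the whole transcript, on the coding-region scaling, the log2 ratio of mt-Atp8 was 1.25, in place of 1.45. It was above the 0.92 to 1.03 of the other mouse subunits on that measure. Whether the 43 shared bases are part of the uncounted stretch was not tested.

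The human and mouse pairs differ in species, cells, ribosome isolation and treatment, and were not compared by a test. Set side by side, ATP8 had the most extreme ratio of its 6 in both pairs, lowest in HEK cells and highest in ES cells. CYB had the lowest ratio after MT-ATP8 in HEK cells and the lowest in ES cells. By raw reads, not divided by gene length, MT-CO1 and mt-Co1 came first of the 6 in all 4 libraries. Per base of the gene, mt-Atp8 came before mt-Co1 with emetine, at 79.2 against 60.8 reads. By whole transcripts it did so with cycloheximide too.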

How the data were processed

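The authors deposited raw counts of reads for each transcript and, per the file headers, for its coding region, leader and trailer, with 1 table per library. The submitters' processing notes list CASAVA 1.8, Bowtie2 2.0.6, TopHat2 2.0.7, mm10 and hg19; what each was used for, the counting rule and the annotation release were not given in the sources used here. Per the labels' protocols, RNase I made the footprints, and ribosomes were pelleted (mouse) or isolated by size exclusion (HEK).

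Members, lists and thresholds were chosen with earlier results of these data known. Counts were scaled to the median coding region with at least 100 summed reads (pandas 2.3.3, scipy 1.17.1). A prior of 0.5 scaled reads entered the log2 ratios and the counts past a fold threshold. Printed folds and ratios, their intervals, and whole-transcript log2 ratios on the coding-region scaling used no prior. Named were all 12 members and, per pair, the 2 coding regions nearest their median, of which 1 per pair is given by identifier; ENST00000361335 and ENSMUST00000082392 were added after their values were seen. Alternatives were 2 other scalings (total counts; TMM, edgeR 4.0.16), other minimums, priors and thresholds, whole transcripts and identical rows counted once. The script was tested on simulated data. Of all transcript identifiers 0 occur in the name tables, so the planned lists of nuclear-encoded subunits and cell markers were not analysed here. Mouse gene lengths replaced the planned protein lengths.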

Additional observations from a re-analysis of the deposited data

How the results depend on the processing

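No paired analysis was possible because every arm consists of 1 library. Of 120 subunit ratios under alternatives, 0 changed direction. The size moved more: for each mouse subunit, 3 of 10 alternatives put the log2 ratio outside its counting interval. Among human subunits this number was 3 for MT-CO1, 2 for MT-CO3 and MT-ATP6, 1 for MT-CO2 and MT-CYB, and 0 for MT-ATP8. The log2 ratio of mt-Co1 ran from 0.949 to 1.20 over the alternatives, wider than its counting interval. The human log2 ratio nearest 0 over the alternatives was -4.81, for MT-ATP6 scaled to total counts. Scaled to total counts the HEK median was -5.08 and the mouse median 1.05. The mouse median was 0.95 with whole transcripts, used also for the scaling. It was 1.20 when scaled to coding regions with at least 10000 reads, an alternative added after seeing the data. The mouse count of 4 became 2 with a minimum of 1 read in each library and 0 at a 4-fold threshold. It became 1 with whole transcripts used also for the scaling. It became 5 scaled to total counts or with a minimum of 500 reads. At a 1.5-fold threshold, or scaled to coding regions with at least 10000 reads, it became 6. Places in the mouse order differed from those by coding reads per base for 4 subunits by raw reads and 4 by whole transcripts with cycloheximide, and for 5 and 2 with emetine. Members with a counted coding region took 0.270% of coding counts in HEK input, 0.00681% in bound, 0.0812% with cycloheximide and 0.198% with emetine. With identical rows counted once these were 0.383%, 0.00965%, 0.0943% and 0.230%. The 6 whole transcripts took 0.591%, 0.0182%, 0.0546% and 0.115% of all transcript counts. Variation between cultures could not be measured, and the ratio of MT-ATP8 rests on 69 bound reads.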
